A study of Schmidtea mediterranea with 24 samples.

Results

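The genes described here are 86 of the 16575 planarian genes in the tables, those whose symbol in the study's gene lists begins like the name of an ion channel, a neurotransmitter receptor or a protein of synaptic vesicle release. They carry 50 different symbols, all names of human genes in capitals, so that several planarian genes share a symbol (6 are called HTR1A and 7 SCNN1B) and each is given here with its own identifier. They included 12 epithelial sodium channel genes, 11 serotonin, dopamine and neuropeptide Y receptors, 9 voltage-gated, 7 calcium-activated and 1 leak potassium channel, 7 TRP channels, 3 voltage-gated calcium or sodium channels, 5 nicotinic and 2 muscarinic acetylcholine receptors, 8 glutamate receptors or their partner GRIP1, 4 synapsin or SNARE genes, 7 synaptotagmins and 2 synaptotagmin-like genes. A further 7 genes (GLRX5, GRINA, 2 HTRA1, 2 SYNE1 and SYNPO2L) begin with the same letters but code for proteins of other roles. They are described apart as other-role genes, but counts below over all 86 genes or over the genes of a list include them. The study's own cell type column named neurons for 27 of the 86 and gave no cell type for 50.

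The study fed double-stranded RNA to the asexual planarian Schmidtea mediterranea, a flatworm that regrows a whole body from fragments, to knock down the homologs of fibrillarin, the enzyme that methylates ribosomal RNA, and measured mRNA (RNA-seq) and ribosome footprints (Ribo-seq) in head, trunk and tail pieces 48 hours after amputation. The groups were fbl-1 KD with its control egfp KD, and fbl-2 KD with its own control egfp 2x KD, named for the strength of its RNAi food, each with 3 RNA-seq and 3 Ribo-seq libraries; egfp is a jellyfish gene that planarians lack, and every control worm had also been fed double-stranded RNA and cut. Each library came from pooled worms, so nothing here belongs to a single animal, and all tissues of the pieces were in it. The double-stranded RNA was made in bacteria and fed to whole worms in liver paste, and the labels name no cell type for the knockdown.

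The targeted genes went against their labels. The value of fbl-1 (SMED30005569) was 1383, 981 and 753 in RNA-seq libraries labelled fbl-1 KD, against 143, 130 and 129 in egfp KD libraries, and that of fbl-2 (SMED30025294) was 481, 773 and 982 in those labelled fbl-2 KD, against 127, 135 and 144 in egfp 2x KD libraries. Footprints of both were likewise higher under their own label, so the groups are called by their labels below and each direction rests on them. By quantitative PCR and in situ hybridization, the study reported lower mRNA of each target in worms of its knockdown. The fed double-stranded RNA carries the sequence of the targeted gene, and whether reads of it were counted in these values was not tested. The neoblast gene piwi-1 (SMED30007406) had mRNA values of 7610, 8794 and 7534 in the libraries labelled fbl-1 KD, against 12299, 12634 and 13971 in egfp KD libraries. The deposited values are reads multiplied by a factor per library (scaled reads below), with totals of 8762055 to 9549828 in RNA-seq and 9116524 to 10763740 in Ribo-seq libraries, and 9 of the 24 libraries lacked at least 1 of the whole numbers 1 to 20. The number of genes at 0 was 1547 to 2141 in RNA-seq and 2262 to 3896 in Ribo-seq libraries, and of the 86 genes at most 2 were at 0 in an RNA-seq library and at most 11 in a Ribo-seq library. Since whole pieces were measured, fewer neurons and less RNA per neuron cannot be told apart in any of the values.

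Nerve cells signal by opening ion channels: voltage-gated sodium and calcium channels carry current in, potassium channels bring the membrane back to rest, and TRP and epithelial sodium channels answer heat, chemicals, stretch or salt. At the synapse, calcium binds synaptotagmin on vesicles, SNARE proteins such as SNAP-25 fuse the vesicle with the membrane, and the transmitter acts either on channels that it opens itself (nicotinic and most glutamate receptors) or on receptors that act through G proteins (muscarinic, most serotonin, dopamine, neuropeptide Y and metabotropic glutamate receptors). Planarians have a brain, nerve cords and a pharynx with its own nerve net, and these are among the organs that head, trunk and tail pieces rebuild after a cut.

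How the genes were chosen decides what can be tested. Symbols were taken from the parts used here of the study's 2 gene lists, 1999 of 14639 rows of a list ordered largely by the mRNA change in fbl-1 KD and 1999 of 14779 rows of one ordered largely by the mRNA change in fbl-2 KD. The genes were thus selected on measured mRNA values of these libraries. The fbl-1 list named 61 of the 86 genes alone, the fbl-2 list 19 alone, and both lists named 6. In the knockdown that chose them, 51 of the 53 genes of the fbl-1 list alone that passed the filter lay above their control in mRNA, and of the 17 of the fbl-2 list alone 8 lay above and 9 below. Those differences are given below as a description. For the 86 genes, tests are given only in the knockdown that did not choose the gene. The last genes inside the part used of the fbl-1 list were SCN4A (SMED30035715), SYT14 (SMED30033835) and DRD2 (SMED30009876), with mRNA differences of 0.33, 0.35 and 0.36 on the log2 scale in that knockdown; the last of the fbl-2 list were CHRNA3 (SMED30035789), KCNN2 (SMED30020416) and GLRX5 (SMED30011945), with 0.63, 0.35 and -0.36. Symbols beyond those rows were not analysed here.

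Tests used limma on log2(scaled reads + 1), where 1 is added so that 0 has a logarithm and the changes of low genes are understated. A gene was tested in a comparison if it reached 10 scaled reads in at least 3 of its 6 libraries, and a gene was called at an adjusted p under 0.05 (Benjamini-Hochberg, over every gene in the comparison). Differences below are knockdown minus control on this log2 scale, and errors on them are standard errors from limma. Translation efficiency (TE) is the footprint difference minus the mRNA difference, fitted over both assays. The labels do not say that the 3 libraries of a group came from separate experiments, so the p-values cover only the spread between libraries, which may be technical.

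In fbl-2 KD, the 61 genes that only the fbl-1 list had named gave no mRNA call. A single gene of the set rose in footprints: GRIP1, a scaffold protein that binds glutamate receptors. Of the 61, 55 passed the filter for mRNA and 0 were called, where 0.363% of the 12958 genes tested were called. Genes that the fbl-2 list named for their mRNA change in this knockdown are not among the 61, which favoured few calls beforehand. The shares of all genes thus stand beside these counts as a description only. At an unadjusted p under 0.05, which 9.93% of all genes passed, 2 were higher (KCNA3 and HTR1A) and 0 lower. Limma without a mean trend also called 0. For 2 genes each knockdown library lay above every control library and for 2 below, against 7.08% and 7.91% of all genes. Of the 55, 39 lay above their control and 16 below, with a median difference of 0.09 against 0.00 over all genes tested, of which 50.2% lay above. That balance rested on 1 library: without egfp 2x KD mRNA library 2 the median was -0.05. Of the 78 of the 86 genes that passed the filter, 42 had their lowest control value in that library, 16 in library 1 and 17 in library 3.

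In footprints, 56 of the 61 passed the filter, 1 rose and 0 fell, where 1.17% of the 12612 genes tested rose and 1.96% fell (3.12% in all). The share called was thus no higher than that of all genes. This too is a description, since the 61 leave out genes named for their mRNA change in this knockdown. For 7 genes every knockdown library lay above every control library and for 3 below, against 9.25% and 8.96% of all genes. These counts include SCNN1B SMED30004738, which reached 10 scaled reads only in knockdown libraries, and DRD2, which did so only in control libraries. Both passed the filter through the group where they were higher, and DRD2 is also among the genes lower in TE below. At an unadjusted p under 0.05, 6 were higher and 0 lower, and 13.6% of all genes passed that level in either direction. Other-role genes made up 3 of these 6, and 2 of the 7 that lay above without overlap. The median footprint difference of the 56 was 0.17, against 0.02 over all genes, with 38 above and 18 below their control; 51.6% of all genes lay above. For TE, 54 passed and 0 were called by limma, as were 0 of the 12364 genes tested (0%); 2 were higher and 2 lower at an unadjusted p under 0.05, a level that 5.76% of all genes passed, and without a mean trend limma called 0 as well.

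In fbl-1 KD, 2 of the 19 genes that only the fbl-2 list had named fell in mRNA: GRM3, a metabotropic glutamate receptor, and KCNMA1, the large-conductance calcium-activated potassium channel. Of the 19, 17 passed the filter for mRNA, where 2.45% of the 12965 genes tested fell and 2.59% rose (5.04% in all). At an unadjusted p under 0.05, which 20.3% of all genes passed, 1 was higher and 4 lower. For 5 genes every knockdown library lay below every control library and for 0 above, against 12.7% and 11% of all genes. The other-role gene GLRX5 was 1 of these 5 and 1 of the 4. Leaving out the genes that the fbl-1 list also names takes away genes for their change in this very knockdown. Neither the share called nor the balance of directions among the 19 is therefore read as a result. The same holds for the 61 genes in fbl-2 KD. The calls of GRM3 and KCNMA1 were lost without the filter on low values and without a mean trend, each of which left 0. In footprints 17 of the 19 passed and 0 were called by limma, where 0.872% of 12503 genes were called; 1 was higher at an unadjusted p under 0.05 and limma without a mean trend called 0. For TE 17 passed and 0 were called, as were 0 of the 12243 genes tested (0%); 3 were higher and 0 lower at an unadjusted p under 0.05, which 4.97% of all genes passed, and 0 were called without a mean trend.

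**Figure D1:**
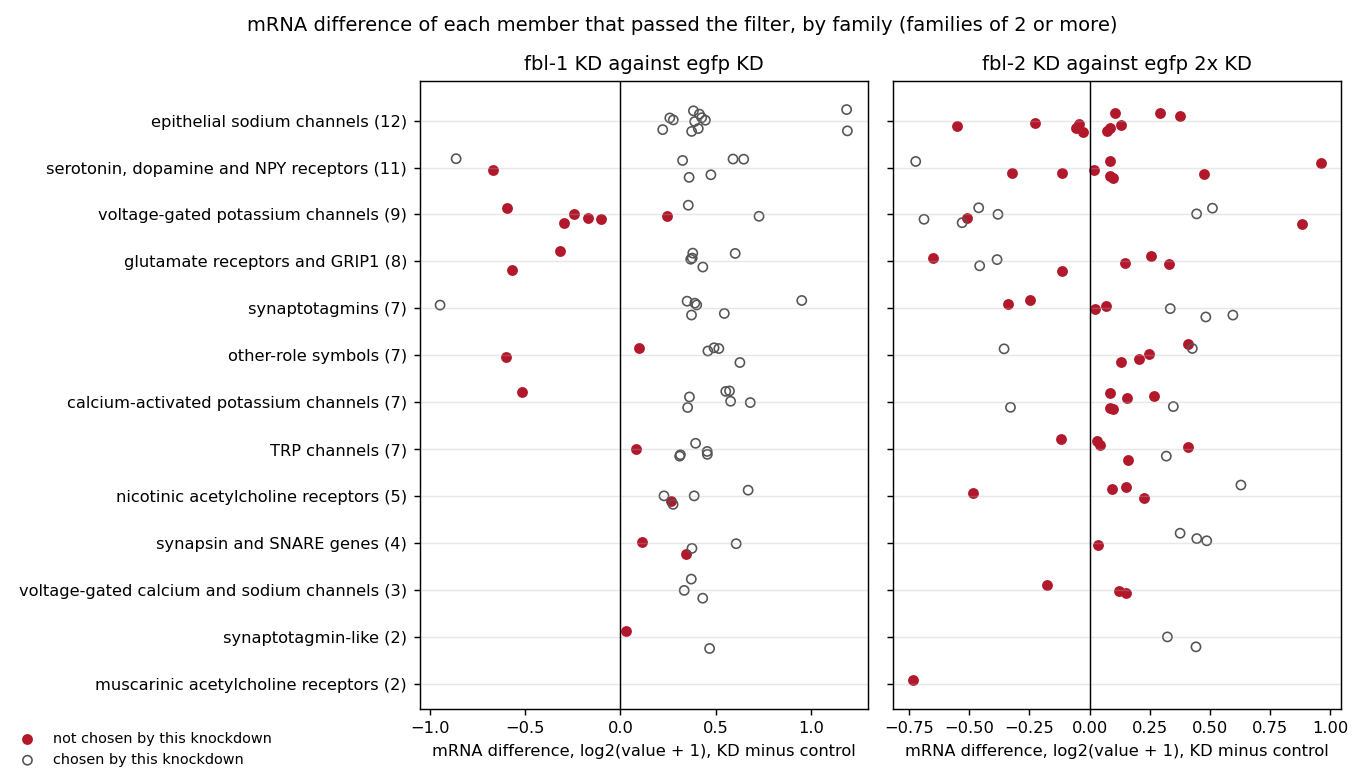
The mRNA difference (x axis, log2(scaled reads + 1), knockdown minus control) of each gene that passed the filter, by family of 2 or more genes (y axis, with the number of genes in the family) for fbl-1 KD (left) and fbl-2 KD (right). Filled points are genes that the knockdown of the panel did not choose and open points genes that it did; in the fbl-1 panel the open points lie nearly all above 0, as their list was sorted, while the filled points of the fbl-2 panel lie on both sides of 0.

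Potassium channels, which bring the membrane back to rest, held 1 of the 2 mRNA calls in fbl-1 KD. KCNMA1 (SMED30014811) had mRNA values of 478, 426 and 450 in the libraries labelled fbl-1 KD, against 515, 723 and 726 in egfp KD libraries, with no overlap. This gave a difference of -0.52 ± 0.14 (SE, adjusted p = 0.0474). The channel opens when calcium enters and helps to end the action potential. In fbl-2 KD, which chose the gene, its mRNA was 501, 485 and 507 in labelled fbl-2 KD, against 659, 597 and 621 in egfp 2x KD. Its log2 difference was -0.33 with no test. Its footprints were 867, 677 and 683 in labelled fbl-1 KD, against 886, 825 and 777 in egfp KD, which overlapped, with a difference of -0.17 (adjusted p = 0.648). Its TE difference in fbl-1 KD was 0.35 ± 0.22 (SE, adjusted p = 0.877). The mRNA call was lost when any single library but egfp KD 1 was left out (limma adjusted p 0.103 to 0.213), without a mean trend (0.19) and without the filter on low values (0.0732).

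The second gene with that symbol, KCNMA1 (SMED30034881), lay the other way in the knockdown that had chosen it, with mRNA values of 285, 220 and 197 in the libraries labelled fbl-1 KD, against 150, 195 and 126 in egfp KD libraries (difference 0.58, not tested). In fbl-2 KD, where it could be tested, it had 155, 231 and 153 in labelled fbl-2 KD, against 173, 108 and 167 in egfp 2x KD, which overlapped. Knockdown minus control was 0.27 ± 0.23 (SE, adjusted p = 0.774). The 2 genes thus lay on opposite sides of their controls in fbl-1 KD. Reads shared by near-identical copies were left out of both, since only uniquely mapped reads were counted.

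Among the voltage-gated potassium channels, which repolarise the membrane after a spike, KCNA2 (SMED30019915) came next: its mRNA was 118, 111 and 112 in the libraries labelled fbl-1 KD, against 157, 181 and 179 in egfp KD libraries, with no overlap. The fitted difference was -0.59 ± 0.17 (SE, adjusted p = 0.0541), which missed the threshold. In fbl-2 KD, which chose it, its difference was -0.69, with 106, 84 and 117 in labelled fbl-2 KD, against 173, 171 and 149 in egfp 2x KD. Its footprints in fbl-1 KD overlapped, at 103, 89 and 80 in labelled fbl-1 KD, against 80, 77 and 96 in egfp KD. Its TE difference was 0.70 ± 0.30 (SE, adjusted p = 0.877). The other KCNA2 gene (SMED30032095) had mRNA differences of 0.24 in fbl-1 KD (adjusted p = 0.657) and 0.45 in fbl-2 KD, which chose it.

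Of the 4 KCNQ1 genes, slow potassium channels known in mammals from heart and epithelia, none was called in fbl-1 KD, where their mRNA differences were -0.24 (SMED30010619), -0.17 (SMED30016239), -0.10 (SMED30029689) and -0.29 (SMED30033794). In fbl-2 KD, which chose them, 3 lay below their control and SMED30029689 above it, with 63, 69 and 82 in labelled fbl-2 KD, against 56, 48 and 45 in egfp 2x KD and no overlap. The lowest of these, SMED30033794, had 69, 124 and 128 in labelled fbl-2 KD, against 168, 127 and 156 in egfp 2x KD. That is a difference of -0.53, and its libraries overlapped. SMED30016239 had mRNA values of 79, 54 and 73 in labelled fbl-2 KD, against 105, 103 and 76 in egfp 2x KD. In fbl-1 KD its footprints were 44, 48 and 59 in labelled fbl-1 KD, against 33, 44 and 20 in egfp KD. The log2 difference came to 0.68 ± 0.47 (SE, adjusted p = 0.531). Its TE difference was 0.85 ± 0.46 (SE, adjusted p = 0.877).

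The 2 KCNA3 genes, voltage-gated channels of the same class as KCNA2, were tested in fbl-2 KD and lay on opposite sides. KCNA3 (SMED30030599) had the lowest unadjusted p of the 61 genes in mRNA, with 83, 71 and 70 in the libraries labelled fbl-2 KD, against 25, 39 and 65 in egfp 2x KD libraries, with no overlap. The difference was 0.88 ± 0.31 (SE, adjusted p = 0.38). Its footprints lay the other way, 67, 8 and 44 in labelled fbl-2 KD, against 36, 60 and 136 in egfp 2x KD, with wide overlap. Its TE difference was -2.04 ± 0.93 (SE, adjusted p = 0.847) with a 95% interval of -4.02 to -0.07. In fbl-1 KD, which chose it, it had 105, 69 and 72 in labelled fbl-1 KD, against 36, 61 and 51 in egfp KD. KCNA3 (SMED30028581) had mRNA values of 27, 29 and 14 in labelled fbl-2 KD, against 34, 36 and 27 in egfp 2x KD, which overlapped. The difference came to -0.51 ± 0.34 (SE, adjusted p = 0.702). KCNC4 (SMED30005727) stayed at or under 6 scaled reads in every RNA-seq library and was not tested.

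The small-conductance calcium-activated channels, KCNN2 and KCNN3, which set the pause after a burst of spikes, were named by the fbl-1 list, and KCNN2 SMED30020416 by both. In fbl-1 KD all 5 of them had every knockdown value above every control value, which their choice favoured; of all genes tested, 11% had. The largest difference was that of KCNN3 (SMED30012987), with 105, 108 and 109 in the libraries labelled fbl-1 KD, against 59, 58 and 86 in egfp KD libraries (0.68, not tested). In fbl-2 KD its values overlapped, 79, 54 and 91 in labelled fbl-2 KD, against 60, 73 and 74 in egfp 2x KD. The resulting difference was 0.09 ± 0.24 (SE, adjusted p = 0.941). The other 3 tested there, KCNN2 SMED30020450 and SMED30030809 and KCNN3 SMED30035413, had mRNA differences of 0.16, 0.09 and 0.10 and were not called. The leak channel KCNK18 (SMED30011009), of the kind that holds the resting potential, had 33, 38 and 32 in labelled fbl-2 KD, against 40, 23 and 37 in egfp 2x KD. The difference was 0.08 ± 0.30 (SE, adjusted p = 0.959).

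**Figure D2:**
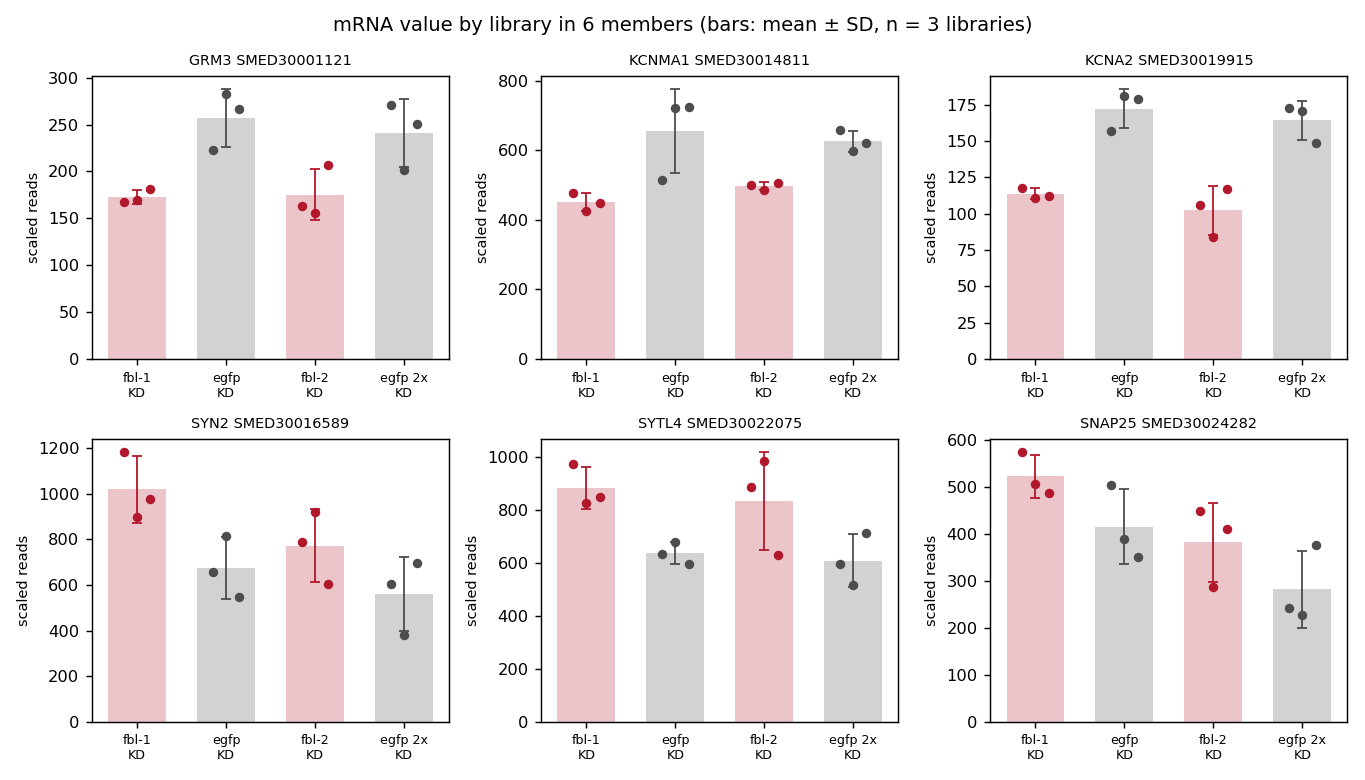
The mRNA value (y axis, scaled reads, from 0) in each library of fbl-1 KD, egfp KD, fbl-2 KD and egfp 2x KD for 6 genes; points are libraries, bars means and error bars SDs of 3 libraries. GRM3 and KCNMA1, which passed the test in fbl-1 KD, and KCNA2, which did not, had means below their controls under both labels, SYN2 and SYTL4 above in fbl-1 KD with overlap in fbl-2 KD, and SNAP25 overlapped in both.

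The voltage-gated calcium and sodium channels, which carry the inward current of an impulse, were 3 genes of the fbl-1 list, all labelled neural by the study. In fbl-2 KD their mRNA was near the controls, with differences of 0.12 for SCN4A, -0.18 for SCN9A and 0.15 for CACNA1I, and none was called. Footprints of SCN4A (SMED30035715) were 179, 251 and 143 in the libraries labelled fbl-2 KD, against 106, 113 and 50 in egfp 2x KD libraries, without overlap. This gave a difference of 1.13 ± 0.41 (SE, adjusted p = 0.187); its TE difference was 1.01 ± 0.46 (SE, adjusted p = 0.85). Those of CACNA1I (SMED30004695), a low-voltage-activated calcium channel, were 763, 767 and 854 in labelled fbl-2 KD, against 646, 552 and 680 in egfp 2x KD, also without overlap. Its log2 difference was 0.35 ± 0.16 (SE, adjusted p = 0.338). SCN9A (SMED30004389) had footprints of 716, 427 and 845 in labelled fbl-2 KD, against 593, 617 and 658 in egfp 2x KD, which overlapped. Knockdown minus control was 0.03 (adjusted p = 0.967). In fbl-1 KD, which chose it, SCN9A had mRNA values of 699, 852 and 734 in labelled fbl-1 KD, against 492, 668 and 613 in egfp KD and footprints of 738, 686 and 833 in labelled fbl-1 KD, against 497, 524 and 488 in egfp KD, neither overlapping.

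The largest family, 12 genes named after subunits of the epithelial sodium channel, belongs to a wider group that also holds the acid-sensing channels of neurons and the touch channels known from worms. All 12 came from the fbl-1 list and all 12 passed the filter for mRNA there, with differences of 0.22 to 1.19. The highest was that of SCNN1A (SMED30035983), with 10, 12 and 13 in labelled fbl-1 KD, against 2, 7 and 6 in egfp KD. Only its knockdown libraries reached 10 scaled reads, so the filter admitted it through the group where it was higher. It also counts among the 51 genes of the fbl-1 list alone that lay above their control, and no conclusion is drawn from its difference. In fbl-2 KD 11 passed for mRNA, 6 above and 5 below the control, with a median of 0.07 and a range of -0.55 to 0.38, and 0 were called. SCNN1B (SMED30028537) had 102, 101 and 114 in labelled fbl-2 KD, against 146, 104 and 124 in egfp 2x KD. The fitted difference was -0.23 ± 0.19 (SE, adjusted p = 0.774). Its footprints were 106, 264 and 105 in labelled fbl-2 KD, against 104, 101 and 84 in egfp 2x KD, which did not overlap but stood apart through 1 high library. The lowest TE differences of the family were those of SCNN1G (SMED30031470), -1.32 ± 0.73 (SE, adjusted p = 0.885), and SCNN1A (SMED30004731), -0.95 ± 0.50 (SE, adjusted p = 0.885). Behind them stood footprints of 68, 16 and 23 in labelled fbl-2 KD, against 76, 73 and 80 in egfp 2x KD for SMED30031470, and of 55, 41 and 43 in labelled fbl-2 KD, against 80, 57 and 85 in egfp 2x KD for SMED30004731, where knockdown and control did not overlap. Footprint differences over the 11 genes that passed ran from -1.35 to 2.62. The highest was that of SCNN1B SMED30004738 at low values, 43, 19 and 15 in labelled fbl-2 KD, against 9, 2 and 1 in egfp 2x KD (limma adjusted p = 0.455). Only its knockdown libraries reached 10 scaled reads, so the filter admitted it through the group where it was higher, and no conclusion is drawn from its difference.

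TRP channels, cation channels of sensory cells and muscle, were 7 genes, 4 of them called TRPM3. TRPM3 (SMED30029075) was the only one of the fbl-2 list, and in fbl-1 KD its footprints were 1048, 872 and 993 in the libraries labelled fbl-1 KD, against 566, 675 and 597 in egfp KD libraries, with no overlap. The log2 difference came to 0.66 ± 0.15 (SE, adjusted p = 0.0824), the lowest p of the 17 genes tested. Its mRNA hardly differed, at 728, 624 and 712 in labelled fbl-1 KD, against 631, 630 and 684 in egfp KD (difference 0.08, adjusted p = 0.743). Its TE difference of 0.58 ± 0.18 (SE, adjusted p = 0.877) also had the lowest p among them. In fbl-2 KD, which chose it, it had mRNA values of 714, 773 and 762 in labelled fbl-2 KD, against 591, 540 and 678 in egfp 2x KD. TRPM3 (SMED30014575) was level in fbl-2 KD: 688, 712 and 674 in labelled fbl-2 KD, against 731, 582 and 707 in egfp 2x KD. That is a difference of 0.04 ± 0.14 (SE, adjusted p = 0.944). The other 4 TRP genes tested there (TRPA1 SMED30005315, TRPM3 SMED30005926 and SMED30020347, TRPM5 SMED30021821) had mRNA differences of 0.41, 0.16, -0.12 and 0.03 and none was called; TRPA1 SMED30002202 stayed under the filter.

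The nicotinic acetylcholine receptors open at once when acetylcholine binds, and 3 of the 5 genes carry the symbol CHRNA6. In fbl-2 KD, CHRNA6 (SMED30004906) had mRNA values of 178, 204 and 184 in the libraries labelled fbl-2 KD, against 163, 175 and 146 in egfp 2x KD libraries, without overlap. Its difference was 0.23 ± 0.16 (SE, adjusted p = 0.72). Its footprints overlapped, 115, 149 and 136 in labelled fbl-2 KD, against 165, 77 and 104 in egfp 2x KD. Its TE difference was 0.04 with a 95% interval of -0.78 to 0.87. CHRNA6 (SMED30025787) had footprints of 30, 201 and 56 in labelled fbl-2 KD, against 59, 44 and 85 in egfp 2x KD. CHRNA6 (SMED30034555) had footprints of 94, 168 and 127 in labelled fbl-2 KD, against 129, 51 and 219 in egfp 2x KD. For these 2 genes mRNA was 65, 40 and 89 in labelled fbl-2 KD, against 68, 46 and 54 in egfp 2x KD, and 201, 168 and 201 in labelled fbl-2 KD, against 182, 172 and 179 in egfp 2x KD. Their TE differences were 0.06 (95% interval -1.61 to 1.72) and 0.06 (-1.09 to 1.22). The intervals of all 3 hold 0, and those of the last 2 reach past 1 log2 unit on both sides. In fbl-1 KD, which chose them, the mRNA of the 3 lay 0.39, 0.23 and 0.28 above the control.

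The 2 CHRNA3 genes came from different lists. CHRNA3 (SMED30035789) was tested in fbl-1 KD, where its footprints were 116, 69 and 68 in labelled fbl-1 KD, against 43, 61 and 37 in egfp KD, which did not overlap. The difference came to 0.82 ± 0.39 (SE, adjusted p = 0.369). In fbl-2 KD, which chose it, it had mRNA values of 41, 34 and 39 in labelled fbl-2 KD, against 18, 21 and 37 in egfp 2x KD, the highest mRNA difference among the genes of that list that reached a mean of 20, at 0.63. CHRNA3 (SMED30027817) had 29, 34 and 30 in labelled fbl-1 KD, against 16, 18 and 24 in egfp KD in the knockdown that chose it, and in fbl-2 KD 10, 21 and 17 in labelled fbl-2 KD, against 26, 19 and 21 in egfp 2x KD. The resulting difference was -0.48 ± 0.38 (SE, adjusted p = 0.755) with overlap.

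Among the glutamate receptors and their partner, GRM3 (SMED30001121) fell in fbl-1 KD. GRM3 lowers transmitter release through a G protein in mammals, and its planarian namesake had mRNA values of 167, 169 and 181 in the libraries labelled fbl-1 KD, against 223, 282 and 266 in egfp KD libraries, with no overlap. Knockdown minus control was -0.57 ± 0.15 (SE, adjusted p = 0.0454). Its footprints, 163, 149 and 165 in labelled fbl-1 KD, against 250, 253 and 117 in egfp KD, overlapped through 1 low control library, with a difference of -0.29 (adjusted p = 0.689). The mRNA call was lost when any single library but egfp KD 1 was left out (limma adjusted p 0.0858 to 0.17), without a mean trend (0.114) and without the filter on low values (0.0668). In fbl-2 KD, which chose it, mRNA was 163, 156 and 207 in labelled fbl-2 KD, against 271, 201 and 251 in egfp 2x KD. This gave a difference of -0.46. The study's cell type column places this gene in the intestine, not in neurons. GRIA4 (SMED30028125), an AMPA-type receptor subunit that passes fast excitation, had 186, 230 and 220 in labelled fbl-1 KD, against 224, 306 and 266 in egfp KD in mRNA. Its log2 difference was -0.32 ± 0.16 (SE, adjusted p = 0.286), with footprints on the other side (329, 329 and 291 in labelled fbl-1 KD, against 264, 318 and 210 in egfp KD). The TE difference was 0.59 ± 0.26 (SE, adjusted p = 0.877).

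GRIP1 (SMED30018509), the scaffold with several PDZ domains that holds AMPA receptors in place, was the 1 gene of the 61 called in fbl-2 KD. Its footprints were 1569, 1551 and 1602 in the libraries labelled fbl-2 KD, against 1140, 888 and 1249 in egfp 2x KD libraries, with no overlap, a mean of 1574 ± 25.9 in the libraries labelled fbl-2 KD against 1092 ± 185 in egfp 2x KD (SD, n = 3 each). The fitted difference was 0.54 ± 0.14 (SE, adjusted p = 0.0247). The call was lost without footprint library fbl-2_1, fbl-2_3, egfp_2x_1 or egfp_2x_2 (limma adjusted p 0.0691 to 0.172) and without a mean trend (0.454). Its mRNA overlapped widely at 755, 1006 and 572 in labelled fbl-2 KD, against 768, 485 and 856 in egfp 2x KD. That is a difference of 0.15 ± 0.23 (SE, adjusted p = 0.886). The TE difference of GRIP1 was 0.39 (95% interval -0.24 to 1.03; adjusted p = 0.9). In fbl-1 KD, which chose it, it had footprints of 1549, 1041 and 953 in labelled fbl-1 KD, against 859, 696 and 685 in egfp KD, again without overlap. The cell type column gives this gene to neurons, muscle and parapharyngeal cells at once. Of the NMDA-type subunits, GRIN3A (SMED30025431) had 37, 34 and 15 in labelled fbl-2 KD, against 34, 37 and 61 in egfp 2x KD. The log2 difference came to -0.65 ± 0.38 (SE, adjusted p = 0.625). GRIN2A (SMED30028945) differed by 0.33 ± 0.25 (SE, adjusted p = 0.738); the kainate-type GRIK5 (SMED30006651) stayed under the mRNA filter, and the 2 GRIA3 genes had mRNA differences of -0.12 (SMED30021366) and 0.26 (SMED30034963), not called.

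**Figure D3:**
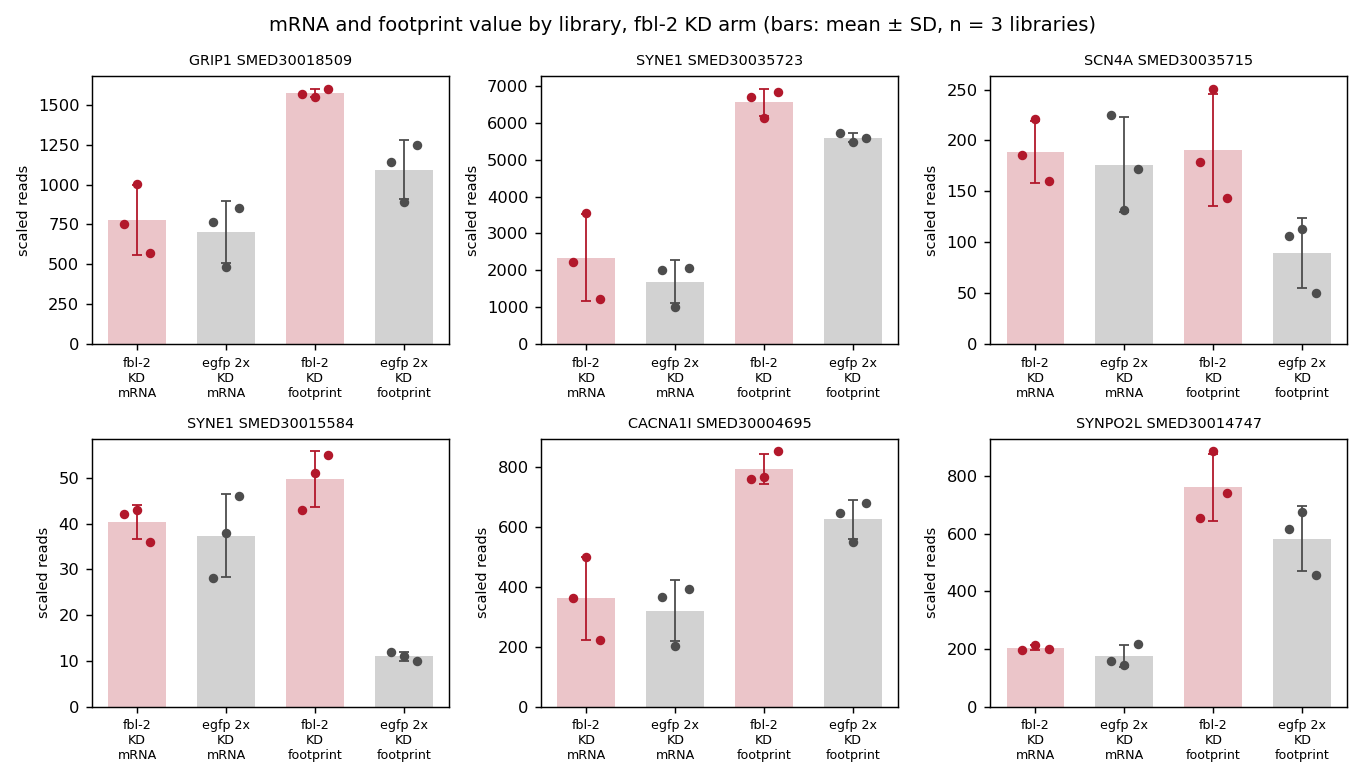
The mRNA value (the 2 left columns of each panel) and the footprint value (the 2 right columns) in fbl-2 KD and egfp 2x KD libraries, y axis in scaled reads from 0, for the 6 genes with the smallest footprint p among the 61; points are libraries, bars means and error bars SDs of 3 libraries. Footprints of GRIP1, both SYNE1 genes, SCN4A and CACNA1I do not overlap between the groups, while their mRNA does; GRIP1 alone was called.

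Receptors that act through G proteins followed no common direction. The 2 muscarinic genes reached no more than 10 scaled reads in any RNA-seq library: CHRM3 (SMED30021911) had 5, 1 and 10 in labelled fbl-2 KD, against 10, 10 and 4 in egfp 2x KD. The difference was -0.73 ± 0.71 (SE, adjusted p = 0.801). CHRM4 (SMED30028774) was under the filter. The dopamine receptor DRD2 (SMED30009876) had mRNA values of 50, 57 and 53 in the libraries labelled fbl-2 KD, against 63, 68 and 70 in egfp 2x KD libraries, without overlap. The difference came to -0.32 ± 0.21 (SE, adjusted p = 0.689). Its footprints were 8, 0 and 1 in labelled fbl-2 KD, against 11, 17 and 34 in egfp 2x KD, also without overlap but with 1 library at 0. Only control libraries reached 10 scaled reads in footprints, so the filter admitted the gene through the group where it was higher. Its TE difference was -2.58 ± 1.11 (SE, adjusted p = 0.838) with a 95% interval of -4.92 to -0.24, and for that reason no conclusion is drawn from this interval. In fbl-1 KD, which chose it, DRD2 lay the other way in mRNA, 81, 78 and 63 in labelled fbl-1 KD, against 66, 67 and 42 in egfp KD.

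Of the 6 HTR1A genes, serotonin receptors that inhibit neurons in mammals, HTR1A (SMED30016929) had the largest mRNA difference in fbl-2 KD of all 61 genes, with 42, 64 and 27 in the libraries labelled fbl-2 KD, against 17, 18 and 30 in egfp 2x KD libraries, which overlapped, at 0.96 ± 0.37 (SE, adjusted p = 0.421). Its footprints were level, 85, 115 and 119 in labelled fbl-2 KD, against 95, 110 and 109 in egfp 2x KD. The resulting difference was 0.01. HTR1A (SMED30034320) was 1 of 2 genes that lay below their control in fbl-1 KD among the 53 of the fbl-1 list alone that passed the filter, with 30, 20 and 31 in labelled fbl-1 KD, against 35, 58 and 58 in egfp KD and no overlap. In fbl-2 KD it had 39, 27 and 35 in labelled fbl-2 KD, against 36, 41 and 24 in egfp 2x KD, at 0.02 ± 0.30 (SE, adjusted p = 0.991). The other HTR1A genes tested in fbl-2 KD, SMED30005147 and SMED30015143, had mRNA differences of -0.11 and 0.09, and SMED30009809 and SMED30004829 stayed under the filter; HTR1B, HTR2A and HTR4 had 0.08, 0.10 and 0.48, and none was called. The neuropeptide Y receptor NPY1R (SMED30008616) had 16, 17 and 26 in labelled fbl-1 KD, against 40, 27 and 28 in egfp KD, without overlap. The difference was -0.67 ± 0.35 (SE, adjusted p = 0.307). In fbl-2 KD it had the lowest mRNA difference of the fbl-2 list, -0.72, with 15, 23 and 28 in labelled fbl-2 KD, against 25, 54 and 34 in egfp 2x KD.

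Genes of vesicle release were among those that both lists had named. Synapsin, which tethers vesicles in the reserve pool, is represented by SYN2 (SMED30016589), with mRNA values of 1183, 899 and 975 in the libraries labelled fbl-1 KD, against 658, 816 and 545 in egfp KD libraries, with no overlap. This gave a difference of 0.61, with no test since the fbl-1 list had named it. Its footprints overlapped, 1766, 1323 and 1373 in labelled fbl-1 KD, against 1178, 1085 and 1515 in egfp KD. In fbl-2 KD it had 790, 921 and 603 in labelled fbl-2 KD, against 602, 380 and 695 in egfp 2x KD in mRNA. Its log2 difference was 0.49. It had 1654, 1621 and 1557 in labelled fbl-2 KD, against 1563, 1843 and 1780 in egfp 2x KD in footprints, both given without a test. The SNARE gene SNAP25 (SMED30024282) had 575, 507 and 487 in labelled fbl-1 KD, against 505, 389 and 352 in egfp KD in mRNA, overlapping by a single control value. Knockdown minus control was 0.35 ± 0.15 (SE, adjusted p = 0.192), with level footprints of 504, 605 and 608 in labelled fbl-1 KD, against 572, 507 and 608 in egfp KD. STXBP2 (SMED30020834), which binds SNARE proteins, had 107, 115 and 110 in labelled fbl-2 KD, against 124, 87 and 116 in egfp 2x KD. That is a difference of 0.04 ± 0.20 (SE, adjusted p = 0.97).

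Synaptotagmins such as SYT1 sense the calcium that triggers fusion. SYT1 (SMED30020209) was level in fbl-2 KD at 322, 295 and 355 in the libraries labelled fbl-2 KD, against 333, 304 and 289 in egfp 2x KD libraries. The log2 difference came to 0.07 ± 0.15 (SE, adjusted p = 0.922), with footprints of 391, 250 and 416 in labelled fbl-2 KD, against 324, 298 and 200 in egfp 2x KD. The TE difference was 0.29 (95% interval -0.38 to 0.96). The other gene of that symbol, SYT1 (SMED30018598), was named by both lists: 74, 78 and 65 in labelled fbl-1 KD, against 47, 44 and 24 in egfp KD, and 77, 78 and 63 in labelled fbl-2 KD, against 35, 51 and 60 in egfp 2x KD, with no overlap in either knockdown. Its footprints were close to 0, 0, 1 and 10 in labelled fbl-1 KD, against 1, 10 and 2 in egfp KD, and under the filter in both knockdowns, so that no TE could be fitted. Both SYT14 genes were likewise named by both lists, with mRNA differences under the fbl-1 and the fbl-2 label of 0.40 and 0.34 for SMED30008301 and of 0.35 and 0.48 for SMED30033835. The values of SMED30033835 were 292, 321 and 247 in labelled fbl-2 KD, against 225, 153 and 245 in egfp 2x KD, and those of SMED30008301 238, 294 and 186 in labelled fbl-2 KD, against 178, 153 and 237 in egfp 2x KD; the first pair did not overlap and the second did.

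SYT14P1 (SMED30022586), whose name belongs to a human pseudogene, had the lowest mRNA difference of the fbl-1 list in fbl-1 KD, -0.95, with 13, 10 and 11 in labelled fbl-1 KD, against 22, 31 and 17 in egfp KD, and overlapping values in fbl-2 KD of 16, 30 and 13 in labelled fbl-2 KD, against 12, 27 and 33 in egfp 2x KD, at -0.25 ± 0.45 (SE, adjusted p = 0.901). SYT15 (SMED30018178) had 48, 68 and 73 in labelled fbl-2 KD, against 74, 89 and 74 in egfp 2x KD, without overlap. The difference was -0.34 ± 0.23 (SE, adjusted p = 0.703). The other SYT15 (SMED30019199) had 11, 16 and 36 in labelled fbl-2 KD, against 18, 20 and 17 in egfp 2x KD. The difference came to 0.02. Their TE differences, 0.73 and -0.04, had intervals of -0.88 to 2.35 and -1.99 to 1.90. The synaptotagmin-like proteins link vesicles to Rab proteins. SYTL4 (SMED30022075), named by both lists, had mRNA values of 974, 825 and 849 in labelled fbl-1 KD, against 635, 679 and 597 in egfp KD, without overlap. The resulting difference was 0.47, with no test. In fbl-2 KD it had 887, 986 and 629 in labelled fbl-2 KD, against 597, 515 and 712 in egfp 2x KD. SYTL5 (SMED30004208) was level in mRNA in fbl-1 KD, 501, 436 and 485 in labelled fbl-1 KD, against 440, 474 and 476 in egfp KD, with footprints of 618, 382 and 322 in labelled fbl-1 KD, against 216, 216 and 423 in egfp KD. The difference was 0.65 ± 0.32 (SE, adjusted p = 0.376). The TE difference was 0.62 ± 0.36 (SE, adjusted p = 0.877).

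**Figure D4:**
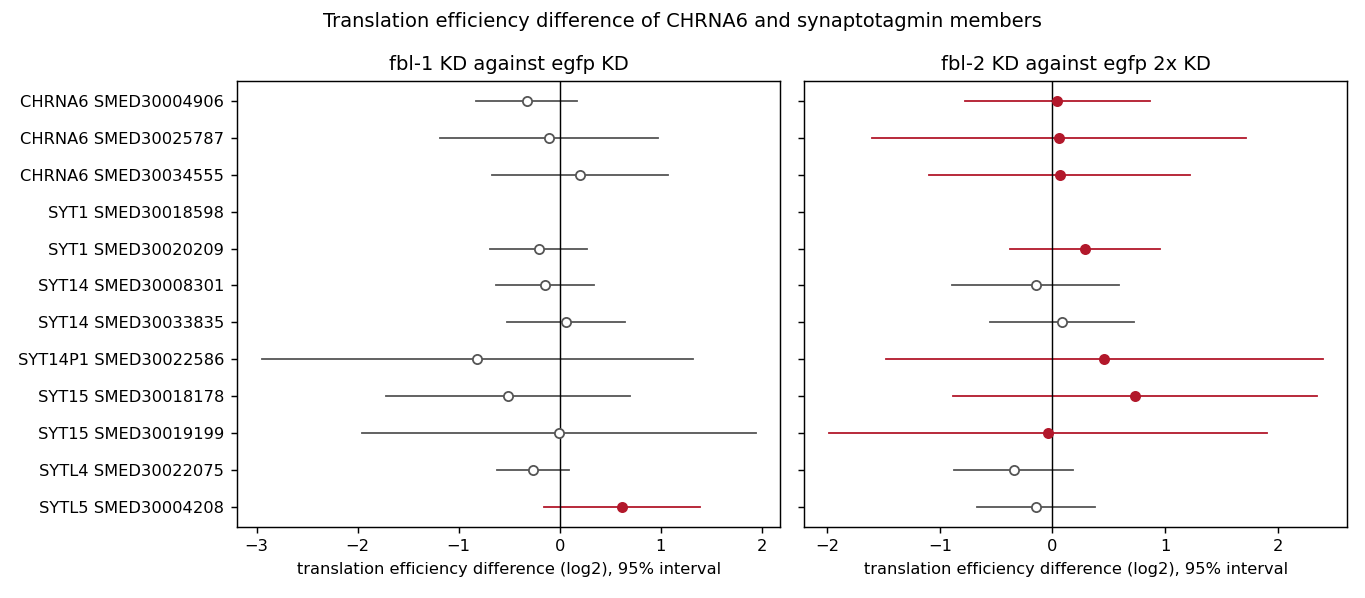
The TE difference (x axis, log2, knockdown minus control) of the CHRNA6 and synaptotagmin genes in fbl-1 KD (left) and fbl-2 KD (right), points with 95% intervals from limma over both kinds of libraries; filled points are genes that the knockdown of the panel did not choose. Every interval holds 0, and SYT1 SMED30018598 has no point because its footprints did not pass the filter.

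The 7 other-role genes share letters with the families and not their work. SYNE1 codes for a giant spectrin-repeat protein that ties the nucleus to the cytoskeleton, and SYNE1 (SMED30035723) had footprints in fbl-2 KD of 6704, 6132 and 6835 in the libraries labelled fbl-2 KD, against 5718, 5485 and 5601 in egfp 2x KD libraries, with no overlap. That is a difference of 0.23 ± 0.08 (SE, adjusted p = 0.165). Its mRNA overlapped, 2237, 3563 and 1223 in labelled fbl-2 KD, against 1996, 1010 and 2058 in egfp 2x KD, with control library 2 lowest. SYNE1 (SMED30015584) had a larger footprint difference at lower values, 2.07 ± 0.88 (SE, adjusted p = 0.283), from 43, 51 and 55 in labelled fbl-2 KD, against 12, 11 and 10 in egfp 2x KD. The TE difference was 1.94 ± 0.70 (SE, adjusted p = 0.838), while its mRNA was level at 42, 43 and 36 in labelled fbl-2 KD, against 28, 38 and 46 in egfp 2x KD. SYNPO2L (SMED30014747), an actin-binding protein of muscle, had footprints of 654, 886 and 743 in labelled fbl-2 KD, against 617, 675 and 457 in egfp 2x KD. This gave a difference of 0.39 ± 0.18 (SE, adjusted p = 0.342). GLRX5 (SMED30011945), a mitochondrial glutaredoxin, had mRNA values of 73, 141 and 100 in labelled fbl-1 KD, against 146, 145 and 172 in egfp KD, without overlap. Its log2 difference was -0.60 ± 0.22 (SE, adjusted p = 0.137). Its footprints were 96, 185 and 211 in labelled fbl-1 KD, against 351, 389 and 121 in egfp KD. Knockdown minus control was -0.71 ± 0.45 (SE, adjusted p = 0.491). The serine protease HTRA1 (SMED30034380) had footprints of 867, 1391 and 1510 in labelled fbl-1 KD, against 1044, 1049 and 741 in egfp KD. The fitted difference was 0.39 ± 0.23 (SE, adjusted p = 0.454); the second HTRA1 (SMED30034608) was under the filter, and GRINA (SMED30000477), a membrane protein named for an NMDA receptor link, had an mRNA difference of 0.20 ± 0.34 (SE, adjusted p = 0.893).

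The study's cell type column, which the choice of symbols did not use, gave the following values for footprints in fbl-2 KD. Of the 61, 18 carried the neural label, all 18 passed the filter and 16 lay above their control, with a median difference of 0.27, and for 6 of the 18 every knockdown library lay above every control library and for 1 below. The 6 were GRIP1, CACNA1I, SCN4A, SCNN1B SMED30028537 and the 2 SYNE1 genes, which are other-role genes. The 43 without the label had 38 that passed, 22 above, a median of 0.12, and 1 with every knockdown library above and 2 with every one below, against 9.25% and 8.96% of all genes. The 1 above was SCNN1B SMED30004738 and 1 of the 2 below was DRD2, and each passed the filter only through the group where it was higher. In mRNA the 2 sets had medians of 0.11 and 0.09. The difference between the sets was not tested.

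Footprints and mRNA of a gene often lay on the same side of the control. In fbl-1 KD 52 of the 73 genes that passed both filters were above the control in both and 6 below in both, 9 were above in mRNA and below in footprints, and 6 the reverse. In fbl-2 KD the counts over 76 genes were 39, 14, 13 and 10. Over all genes tested they were 4080, 4001, 1892 and 2270 of 12243 in fbl-1 KD, and 3796, 3546, 2426 and 2596 of 12364 in fbl-2 KD. Most of the 86 genes were chosen for their mRNA in fbl-1 KD, so the first counts are a description. Spread grew at low values: footprint differences of the 38 genes with a mean of 100 scaled reads or more ran from -0.51 to 1.13 in fbl-2 KD, and those of the 40 below it from -2.90 to 2.62. The ends of the wider range, DRD2 and SCNN1B SMED30004738, passed the filter only through the group where they were higher.

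**Figure D5:**
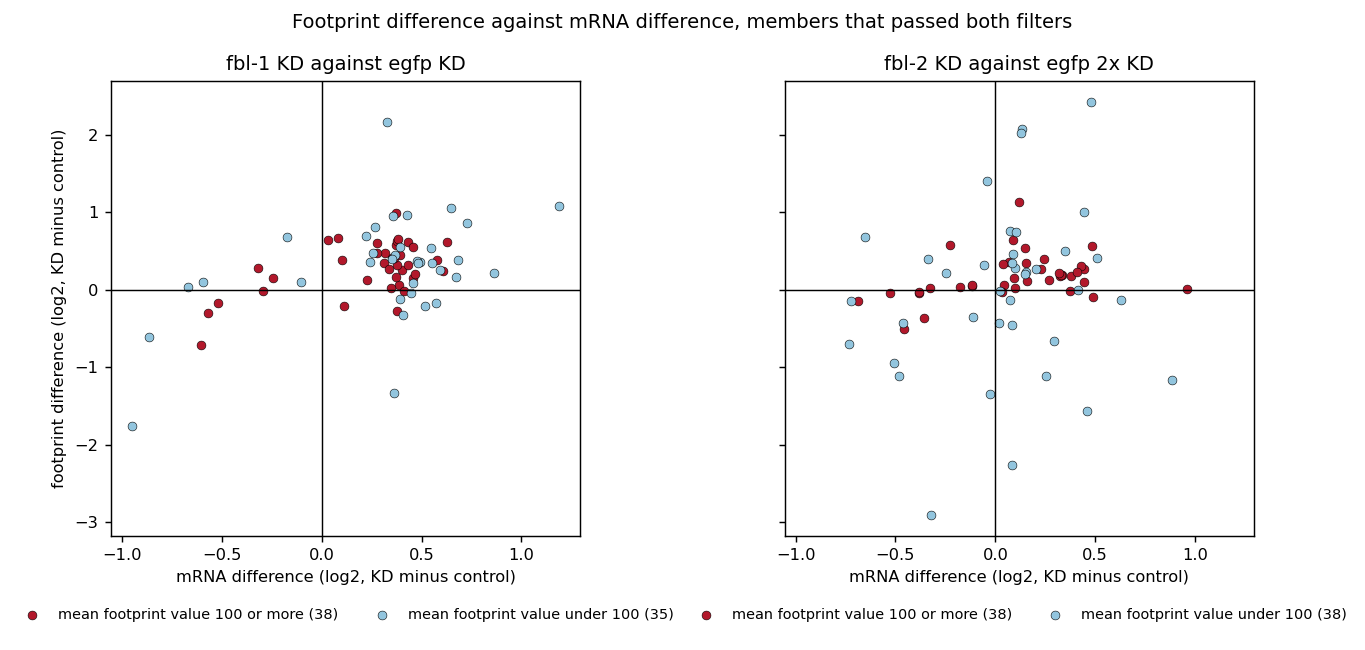
The footprint difference (y axis) against the mRNA difference (x axis), both log2, knockdown minus control, of each gene that passed both filters, in fbl-1 KD (left) and fbl-2 KD (right), dark for a mean footprint value of 100 or more and light below. Genes with high footprint values lie within -0.71 to 0.99 in fbl-1 KD and -0.51 to 1.13 in fbl-2 KD on the y axis, while low ones spread beyond.

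Other genes with neural roles, picked by symbol and not by cell type label and named by the same lists, gave a few calls. In fbl-2 KD, 26 of the 41 such genes that the fbl-1 list alone named passed for mRNA and 0 were called by limma (0 also at an unadjusted p under 0.05), with a median of 0.11; in footprints 25 passed, with a median of 0.24, and 1 rose, RYR2 (SMED30013228), the calcium release channel of internal stores, at 0.37 ± 0.07 (SE, limma adjusted p = 0.0014), where 1.17% of all genes rose. In fbl-1 KD, all 15 that the fbl-2 list alone named passed for mRNA, 1 rose and 1 fell: SHANK3 (SMED30010816), a scaffold under excitatory synapses, at 0.44 ± 0.11 (adjusted p = 0.026), and the adhesion protein NRXN3 (SMED30034068), at -0.54 ± 0.14 (adjusted p = 0.0424). Of all genes 2.59% rose and 2.45% fell there. None of the 15 was called by limma in footprints, with 2 higher and 0 lower at an unadjusted p under 0.05, or in TE, with 0 in either direction.

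Genes of other cell types differed between the labelled groups in some lists and overlapped in others. In libraries labelled fbl-1 KD the summed mRNA of 3 neoblast genes was 11938 to 12837, against 17823 to 19215 in egfp KD libraries, and 2 of the 3 fell. That of 17 ciliated-cell genes was 48399 to 62353 in labelled fbl-1 KD, against 30262 to 43993 in egfp KD, and 11 rose; the fbl-1 list had named most of them. That of 10 muscle genes was 80611 to 120544 in labelled fbl-1 KD, against 67786 to 94365 in egfp KD, with 2 rising. The fbl-1 list had named most of these too, so the rises in both sets are a description. Of the genes that only the fbl-2 list named, 0 of 2 ciliated-cell and 0 of 3 muscle genes were called. The sum of 5 epidermal lineage genes was 3428 to 3706 in labelled fbl-1 KD, against 3270 to 4343 in egfp KD, with 1 rising and 1 falling. In footprints, where GRIP1 rose, the ciliated-cell sum was 134377 to 142519 in the libraries labelled fbl-2 KD, against 95476 to 106699 in egfp 2x KD libraries, with 10 of 17 rising, and the muscle sum 349094 to 414355 in labelled fbl-2 KD, against 315987 to 327962 in egfp 2x KD, with 2 of 10 rising, where 1.17% of all genes rose. Without a mean trend limma called 2 genes of the whole footprint table, so at most 2 of these calls can hold there. The neoblast sum was 12384 to 12654 in labelled fbl-2 KD, against 13709 to 14917 in egfp 2x KD, with 0 of 3 genes called. The epidermal sum was 3782 to 3974 in labelled fbl-2 KD, against 4212 to 4369 in egfp 2x KD, but its genes did not share a direction. There 1 fell, where 1.96% of all genes did, and 1 rose, egr-5 (SMED30029873), with 722, 778 and 786 in labelled fbl-2 KD, against 466, 436 and 389 in egfp 2x KD. The limit of 2 calls without a mean trend covers these calls too. No gene of these lists was at 0 in an RNA-seq library, 1 epidermal gene was at 0 in at least 1 Ribo-seq library, and their part in the results above was not tested.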

How the data were processed

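RNA-seq and Ribo-seq were made from the same lysates of pooled planarian pieces. Per the study's methods, reads were trimmed with Cutadapt and Sickle, mapped to a transcriptome with TopHat2, kept if unique and counted with featureCounts. The deposited values, called counts by the authors, behave as a signal: reads times a factor per library, rounded, which was not undone, so count models were not used. The factor and the true depth are not given in the sources used here. A column of the study's gene lists gave the symbols; their fold changes and p-values were not used. Replicates were grouped by title, and Ribo-seq columns by group only.

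limma (version 3.58.1, R 4.3.3, trend and eBayes) was fitted per knockdown to log2(value + 1) for genes with at least 10 in at least 3 libraries; TE was the interaction of knockdown and assay. It was tested on simulated data. Adjustment was by Benjamini-Hochberg across the whole comparison, with calls at 0.05. Members, gene lists and tests were chosen with earlier results of these data known. Values per library are given for called genes or those with the 6 smallest p (at most 12), the highest mRNA of each family, CHRNA6 and SYT genes, the 4 largest differences each way in the choosing knockdown at a mean of 20 or more, other-role genes and both targets. Others are given for context and were chosen after their values were seen. Alternatives were a pseudocount of 5, no filter, equal library totals, no mean trend, leaving out each library and a replicate block. No reference genome was used and no sequences are shown. Values of some genes of the set are not reported here.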

Additional observations from a re-analysis of the deposited data

How the results depend on the processing

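The calls were few and near the threshold. The 2 mRNA calls in fbl-1 KD (GRM3 and KCNMA1) were 0 without the filter on low values, 0 without a mean trend and 0 to 2 when a library was left out, with 0 left without libraries labelled fbl-1 KD 1 or 3 or egfp KD 2 or 3; over all 25 genes of the fbl-2 list, a set added after seeing the data, the count was 4, but SYN2 and SYTL4, the 2 it adds, had been chosen by fbl-1 KD itself and are no test. KCNA2 passed with equal library totals (adjusted p = 0.0369), which gave 3 calls, and GLRX5 without fbl-1 KD library 2 (adjusted p = 0.0393). Adjusted p over all alternatives was 0.028 to 0.17 for GRM3, 0.00702 to 0.213 for KCNMA1 and 0.016 to 0.454 for GRIP1. The 1 footprint call in fbl-2 KD was 0 without a mean trend and 0 to 2 when a library was left out, 2 without the library fbl-2_2, when SYNE1 SMED30035723 joined GRIP1, and 0 without fbl-2_1, fbl-2_3, egfp_2x_1 or egfp_2x_2. The count was 0 under every alternative for mRNA in fbl-2 KD, footprints in fbl-1 KD and TE in both.

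The median differences ran from -0.045 to 0.13 (mRNA, fbl-2 KD), 0.10 to 0.20 (footprints, fbl-2 KD), -0.21 to -0.09 (mRNA, fbl-1 KD) and 0.094 to 0.26 (footprints, fbl-1 KD) when a library was left out, and the last was 0.049 with equal library totals. No call of a named gene turned round. Without a mean trend all mRNA calls in fbl-1 KD were 49 in place of 654 and all footprint calls 0 in place of 109; in fbl-2 KD they were 2 in place of 47 and 2 in place of 394.

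Same-numbered RNA-seq libraries did not deviate together (correlations of -0.39 to 0.05), so the replicate numbers pair nothing; with a replicate block the mRNA calls were 0 in fbl-1 KD (adjusted p = 0.0845 for GRM3 and 0.0841 for KCNMA1) and 0 in fbl-2 KD, and over all genes 413 and 13. The libraries' depth is unknown, so no counting interval could be given.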
